A study of Sus scrofa with 6 samples.

Results

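The miRNAs described here are those encoded within the HOX gene clusters of the pig, namely miR-10a, miR-10b, miR-196a, miR-196b and miR-615, with both arms of each hairpin. They were chosen by name, as every row of the miRNA table whose first name began with one of these 5 names, which gave 11 of 1143 mature miRNAs. The libraries came from 3 Meishan (MS) and 3 Large White (LW) fetuses, all female and each from a different sow, and the tissue was longissimus dorsi, the long muscle of the back. The study compared the breeds to ask how miRNA levels differ during the formation of the primary myofibers. MS is labelled as the obese and LW as the lean breed. Fetuses were taken at 35 days post coitum (dpc) in both breeds. The sample labels give an age of 2 years instead, which does not touch the grouping by breed. Each library was bulk tissue, so that fewer cells of a type and less of a miRNA per cell cannot be told apart.

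HOX genes encode the transcription factors that give cells their position along the head to tail axis of the embryo. The miRNA genes that lie among them are transcribed in overlapping parts of that axis, and several of them repress HOX transcripts. In mouse embryos miR-196 directs the cleavage of Hoxb8 mRNA, in human cells miR-10b represses HOXD10, and the gene of miR-615 sits within HOXC5. A miRNA hairpin gives a 5p and a 3p strand, one of which is usually loaded into the silencing complex (the guide) while the other (the passenger) is mostly degraded. Bases 2 to 8 of the loaded strand, the seed, largely decide which mRNAs it binds.

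The seeds show which of these miRNAs can be expected to share targets, and the mature sequences of the main arms were as follows, as the deposited table writes them (T for U, 5′ to 3′), with the seed in capitals.
ssc-miR-10a-5p: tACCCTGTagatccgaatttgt
ssc-miR-10b-5p: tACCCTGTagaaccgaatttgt
ssc-miR-196a-1-5p: tAGGTAGTttcatgttgttggg
ssc-miR-196b-1-5p: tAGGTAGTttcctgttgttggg
ssc-miR-615-3p: tCCGAGCCtgggtctccctct
The ssc prefix stands for the pig and is left out from here on, and ssc-miR-196a-1-5p, which the table lists together with ssc-miR-196a-2-5p, is called miR-196a-5p. MiR-10a-5p and miR-10b-5p had the same seed and differed at 1 base (T12A, counted from the 5′ end of miR-10a-5p). MiR-196a-5p and miR-196b-5p likewise shared a seed and differed at 1 base (A12C, counted from the 5′ end of miR-196a-5p). In both pairs the differing base was base 12, outside the seed, and reads of the members of a pair are told apart by that base alone. No other miRNA of the table had the seed of miR-10 or that of miR-615-3p. The miR-196 seed overlapped the let-7 seed by 6 bases with an offset of 1 base, and it was also found in PC-23-5p and PC-24-5p, which the table types as candidates.

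The hairpins lay in 4 chromosomes of Sscrofa10.2, at the places given in the authors' hairpin table, whose intervals are longer than the hairpin sequences it lists. The hairpin of miR-10a lay on the minus strand at chr12:24791244-24791364 and that of miR-196a-1 on the plus strand at chr12:24836761-24836862. In the RefSeq annotation of Sscrofa11.1 their nearest named coding genes were HOXB3 and HOXB5 for miR-10a, and HOXB8 and HOXB13 for miR-196a-1. The hairpins of miR-196a-2 (chr5:19654956-19655065) and miR-615 (chr5:19690656-19690749) both lay on the minus strand. MiR-196a-2 had HOXC10 and HOXC9 as neighbours in RefSeq, and miR-615 lay within HOXC5. The hairpin of miR-10b was on the plus strand at chr15:91419007-91419114, between HOXD8 and HOXD3, and that of miR-196b on the plus strand at chr18:49836541-49836625. RefSeq neighbours were found for 5 of the 6 hairpins, and not for miR-196b. MiR-196a-5p has the same sequence in the hairpins of chromosomes 5 and 12, so that its reads come from either locus, and only the 3p arms tell the loci apart.

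The values are normalized reads. For each miRNA they count its most abundant sequence, to which the authors applied 1 scaling factor per library. The libraries held 1038961 to 3419300 reads of listed miRNAs, and 1 read was worth 0.72 to 1.69 normalized reads, the coarsest being MS replicate 3. The normalized reads of all miRNAs summed to 1757879 to 2362082 in MS and to 2541224 to 2914028 in LW, so that the LW sums averaged 1.347 times the MS sums. With libraries scaled to equal sums the median log2 fold change over all miRNAs tested was higher by 0.43, and a change smaller than that has a direction only relative to the authors' scaling. Fold changes also moved with the GC content of the mature sequences (Pearson r = -0.40 across 548 miRNAs, which are not independent replicates). A correction that removes the trend with GC content within each library moved the median by -0.17. All 4 muscle miRNAs of a marker list (miR-1, miR-133a, miR-133b and miR-206) were present, at a summed 61079 to 84301 normalized reads in MS and 17015 to 22040 in LW. All 4 were called higher in MS at the authors' scaling, and after the GC correction 3 were higher and 1 was lower.

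The HOX-cluster miRNAs together held 11.4% ± 1.17 of the normalized reads in MS and 6.36% ± 0.42 in LW (SD, n = 3 each). Almost all of this was miR-10, whose 4 mature miRNAs held 11.9%, 11.3% and 9.27% in MS replicates 1, 2 and 3, and 5.51%, 5.95% and 5.63% in LW replicates 1, 2 and 3. All 3 MS shares lay above all 3 LW shares (p = 0.10 in an exact permutation test, two-sided like those that follow, which cannot go lower with 3 animals per breed). The miR-196 group held 0.52% ± 0.20 in MS and 0.57% ± 0.19 in LW (SD, n = 3 each), and the breeds overlapped (exact permutation test, p = 0.70). MiR-615 held 0.020%, 0.022% and 0.050% in the MS libraries and 0.076%, 0.099% and 0.091% in the LW libraries, again with no overlap (exact permutation test, p = 0.10). The 3 groups therefore took different directions in their share of the library, miR-10 being higher, miR-615 lower and miR-196 within the spread of the animals. A share counts only miRNA reads and does not depend on the authors' scaling, but it was not corrected for GC content. After that correction the log2 fold changes of the 5p arms that make up nearly all of the miR-10 share were below 0 (-0.38 for miR-10b-5p, not called, and -0.79 for miR-10a-5p, called lower).

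**Figure D1:**
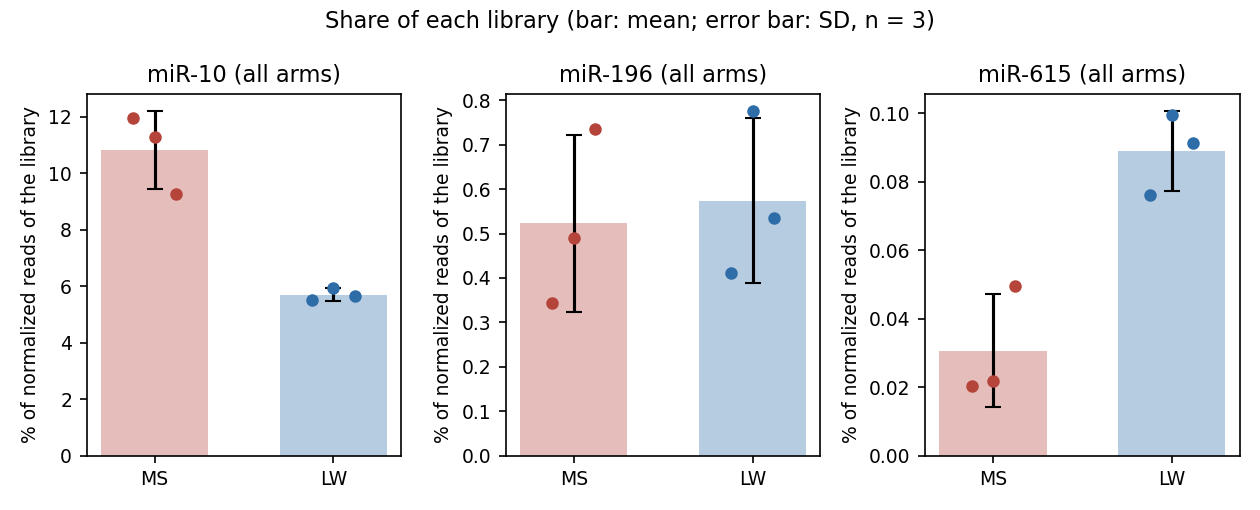
Share of the normalized reads of each library held by all arms of miR-10, miR-196 and miR-615 (percent), with MS left of LW. Points are libraries, bars the means and error bars the SD (n = 3). MiR-10 took 9.27% to 11.9% in MS against 5.51% to 5.95% in LW, whereas the miR-196 shares overlapped.

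Between the breeds, 10 of the 11 miRNAs reached a mean of 10 normalized reads in either breed and were tested, and 5 passed at an adjusted p under 0.05 (limma on log2(normalized reads + 1), Benjamini-Hochberg over all 548 miRNAs tested). MiR-10b-5p and miR-196a-2-3p were higher in MS, and miR-615-3p, miR-10b-3p and miR-196a-5p were lower. After the GC correction 1 was called higher and 5 lower, and with equal sums 3 were higher and 2 lower. Of all 548 miRNAs 62.2% were called, 34.1% higher and 28.1% lower in MS, so that 5 of 10 is no more than the table as a whole gives. Of the called miRNAs 54.8% were higher in MS, and 66.3% with equal sums. The libraries of the breeds did not overlap for 4 of the 10, beside 67.7% of all miRNAs tested. The median log2 fold change of the 10 was -0.25, beside 0.11 for all miRNAs tested. For miRNAs with few reads, the added 1 pulls the fold change towards 0. MiR-10a-5p, miR-10a-3p, both arms of miR-196b and miR-615-5p did not pass.

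**Figure D2:**
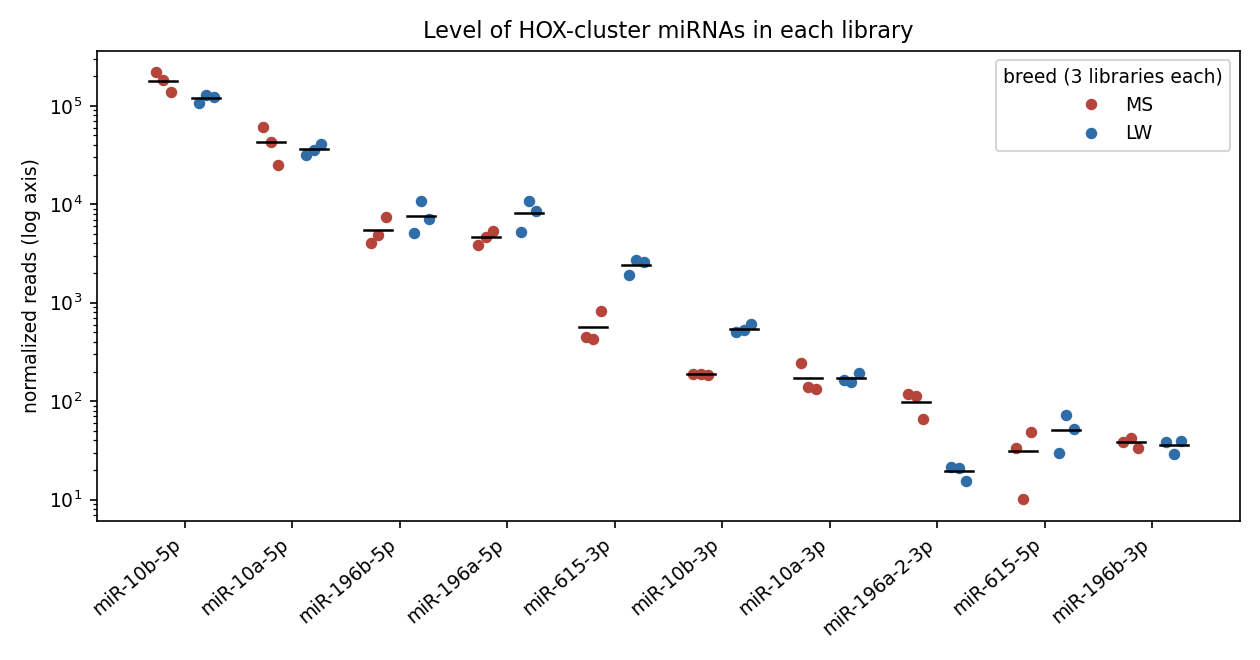
Normalized reads (log axis) of the 10 miRNAs tested, with the 3 MS libraries left of the 3 LW libraries for each miRNA and a black line at the breed mean. The breeds do not overlap for miR-10b-5p and miR-196a-2-3p, higher in MS, or for miR-615-3p and miR-10b-3p, lower in MS.

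MiR-10b-5p, the guide strand from the HOXD cluster, was the most abundant of these miRNAs in every library. It had 220122, 181347 and 137685 normalized reads in MS replicates 1, 2 and 3, against 107258, 128912 and 122145 in LW replicates 1, 2 and 3. The lowest MS library lay above the highest LW library, by less than the range within either breed. The log2 fold change was 0.57 (standard error, SE, 0.22, limma adjusted p = 0.040). This call was lost when any 1 library other than MS replicate 3 was left out (log2 fold changes of 0.41 to 0.62, limma adjusted p = 0.058 to 0.15), and without MS replicate 3 the fold change was 0.75. With equal sums it was 1.01, and after the GC correction it was -0.38 and not called.

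MiR-10a-5p, its relative from the HOXB cluster, had 61347, 42687 and 24926 normalized reads in MS and 32023, 35841 and 41212 in LW. The MS values enclosed those of LW, since MS replicate 1 was the highest and MS replicate 3 the lowest of the 6 libraries. The log2 fold change was 0.15 (SE 0.30, limma adjusted p = 0.67). It was called higher with equal sums (0.59, limma adjusted p = 0.042) and lower after the GC correction (-0.79, limma adjusted p = 0.039). Its direction thus rests on the scaling and the GC correction, and at the authors' scaling it was -0.15 without MS replicate 1. Between these 2 miRNAs the scaling of a library cancels, and both have a GC content of 40.9%. MiR-10b-5p exceeded miR-10a-5p by 3.59, 4.25 and 5.52 times in the MS libraries and by 3.35, 3.60 and 2.96 times in the LW libraries. The ratios overlapped at MS replicate 1 and LW replicate 2 (mean difference of 0.41 on the log2 scale, exact permutation test, p = 0.20, and 0.25 on that scale without MS replicate 3).

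MiR-196a-5p, from the HOXB and HOXC loci together, had 3869, 4699 and 5353 normalized reads in MS and 5251, 10844 and 8526 in LW. Only MS replicate 3 and LW replicate 1 overlapped, and the log2 fold change was -0.77 (SE 0.30, limma adjusted p = 0.037). The call ended without MS replicate 1, MS replicate 2, LW replicate 2 or LW replicate 3 (log2 fold changes of -0.79 to -0.54, limma adjusted p = 0.073 to 0.16), and with equal sums (-0.33, limma adjusted p = 0.35). MiR-196b-5p, from chromosome 18, had 4074, 4888 and 7488 normalized reads in MS and 5122, 10700 and 7015 in LW. MS replicate 3 lay above 2 of the LW libraries, and the log2 fold change of -0.46 (SE 0.32) did not pass (limma adjusted p = 0.23). The ratio of miR-196b-5p to miR-196a-5p, which no scaling of a library changes, was 1.05, 1.04 and 1.40 in the MS libraries and 0.975, 0.987 and 0.823 in the LW libraries. MiR-196b-5p was thus the more abundant of the pair in every MS library and the less abundant in every LW library, a log2 difference of 0.32 (exact permutation test, p = 0.10). Without MS replicate 3 the log2 difference was 0.18 (exact permutation test, p = 0.30). MiR-196b-5p has 45.5% GC and miR-196a-5p 40.9%, and after the GC correction their log2 fold changes were -0.59 and -1.72, of which that of miR-196a-5p was called lower (limma adjusted p = 0.00098).

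A longer form of miR-196b was listed as PC-23-5p, whose first 22 bases are those of miR-196b-5p with 1 base added at the 3′ end. The deposited table types it as candidate, whereas the methods use the prefix PC for conserved miRNAs. It was chosen for its sequence, and its values had then been seen. It had 2.88, 2.75 and 6.77 normalized reads in MS and 16.3, 29.3 and 26.5 in LW. It reached a mean of 10 normalized reads through LW alone, so its values are given with no test, and its difference from the shorter form was not tested. The other candidate with the seed, PC-24-5p (A12G from miR-196a-5p), had at most 1.83 normalized reads in a library.

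MiR-615-3p, the main arm of the hairpin within HOXC5, had the largest fall of the 10 at the authors' scaling. It had 445, 427 and 824 normalized reads in MS and 1907, 2692 and 2611 in LW, which is 4.25-fold lower in MS by the ratio of the means. Every MS library lay below every LW library, and MS replicate 3 was the highest of the MS libraries. The log2 fold change was -2.14 (SE 0.32, limma adjusted p = 0.00012), from -2.44 to -1.97 when 1 library was left out. With 66.7% GC it was the most GC-rich of the main arms, and after the GC correction the fold change was -1.49 (limma adjusted p = 0.0022).
Its passenger miR-615-5p had 33.8, 10.1 and 49.1 normalized reads in MS and 30.1, 72.4 and 52.1 in LW. The breeds overlapped and the log2 fold change of -0.88 did not pass (SE 0.55, limma adjusted p = 0.18). Without MS replicate 3 it was -1.33 and was called lower (limma adjusted p = 0.044).

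**Figure D3:**
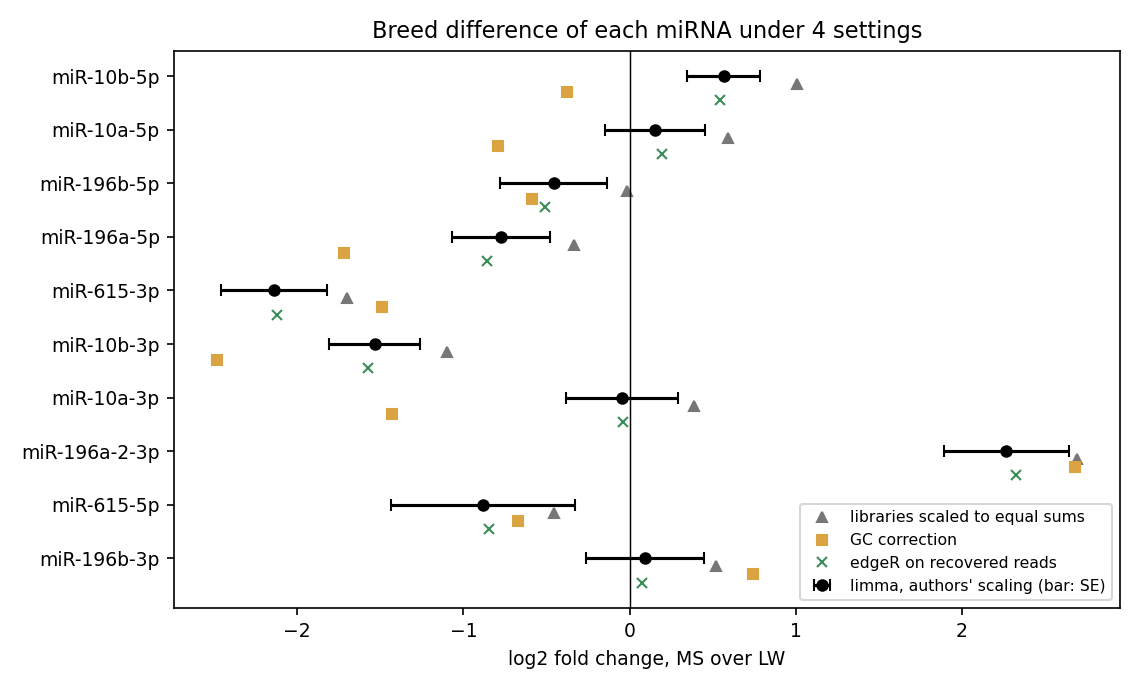
Log2 fold change of MS over LW for the 10 miRNAs tested. Black points with bars (SE) are limma values at the authors' scaling, triangles the values with libraries scaled to equal sums, squares those after the GC correction and crosses those of edgeR on recovered reads. MiR-615-3p and miR-10b-3p lie left of 0 and miR-196a-2-3p right of 0 under all 4 settings, while the squares of miR-10a-5p (-0.79) and miR-10b-5p (-0.38) alone lie left of 0 for these 2 miRNAs.

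At miR-10b and miR-196a the 5p arm and a 3p arm were called with opposite signs at the authors' scaling. The signs of 5p and 3p also differed at miR-10a (0.15 and -0.05) and miR-196b (-0.46 and 0.09), where neither arm was called. After the GC correction both arms of miR-10b were below 0 (-0.38 and -2.48). The miR-10b and miR-196a-2 hairpins are shown with both arms in capitals (5′ to 3′, T for U, from the authors' hairpin table).
miR-10b hairpin: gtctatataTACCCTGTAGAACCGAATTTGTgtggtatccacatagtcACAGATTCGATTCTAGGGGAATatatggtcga
miR-196a-2 hairpin: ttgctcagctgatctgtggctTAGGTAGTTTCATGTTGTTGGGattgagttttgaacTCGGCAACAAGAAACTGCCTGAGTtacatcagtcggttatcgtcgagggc
MiR-10b-3p had 188, 190 and 184 normalized reads in MS and 506, 531 and 602 in LW, while its guide miR-10b-5p was higher in MS. The MS values were nearly equal and all lay below the LW values (log2 fold change -1.53, SE 0.28, limma adjusted p = 0.00047, and -2.48 after the GC correction).

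The 3p arm made up 0.085%, 0.105% and 0.134% of the reads of the miR-10b hairpin in MS, and 0.470%, 0.410% and 0.490% in LW. The log2 ratio of 5p to 3p averaged 9.87 ± 0.33 in MS and 7.77 ± 0.13 in LW (SD, n = 3 each). It was higher in MS by 2.10 (SE 0.25, limma adjusted p = 8.7e-05 over the 192 pairs of arms tested). Both arms have a GC content of 40.9%, so the GC correction cannot change their ratio and is no test of this difference. The miR-10a hairpin gave 0.394%, 0.328% and 0.527% of its reads as 3p in MS and 0.506%, 0.432% and 0.472% in LW. Its arm ratio did not pass (log2 difference 0.20, limma adjusted p = 0.52), and miR-10a-3p, with 242, 140 and 132 normalized reads in MS and 163, 155 and 195 in LW, did not pass (log2 fold change -0.05, limma adjusted p = 0.91). After the GC correction miR-10a-3p was called lower (-1.43, limma adjusted p = 0.0026). In LW both miR-10 hairpins therefore gave a 3p share between 0.41% and 0.51%, and in MS only that of miR-10b lay below this range in all 3 libraries.

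MiR-196a-2-3p, the 3p arm from the HOXC locus, went the other way. It had 119, 113 and 66.0 normalized reads in MS and 21.3, 21.1 and 15.5 in LW, 5.13-fold higher in MS by the ratio of the means. These were 165, 123 and 39 reads in MS and 17, 26 and 17 reads in LW. The log2 fold change was 2.27 (SE 0.38, limma adjusted p = 0.00026), while the shared 5p arm had a log2 fold change of -0.77. Of the reads of both arms, miR-196a-2-3p made up 2.98%, 2.35% and 1.22% in MS and 0.404%, 0.195% and 0.182% in LW. The log2 ratio of 5p to 3p was lower in MS, with a difference of -3.04 (SE 0.45, limma adjusted p = 0.00027, and -4.40 after the GC correction). Because the 5p reads come from the loci of chromosomes 5 and 12 together, this ratio is not that of the miR-196a-2 hairpin alone.
MiR-196a-1-3p, the 3p arm from the HOXB locus, had 2, 1 and 1 reads in MS and 1, 0 and 1 reads in LW. The 0 in LW replicate 2 allows up to 2.44 normalized reads (3 reads, counting error only), and no difference was detectable at this depth. MiR-196b-3p had 38.1, 42.2 and 33.8 normalized reads in MS and 38.8, 29.3 and 39.3 in LW, with a log2 fold change of 0.09 (SE 0.36, limma adjusted p = 0.83). The HOXC cluster thus held both a strand that was higher in MS, miR-196a-2-3p, and one that was lower, miR-615-3p.

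**Figure D4:**
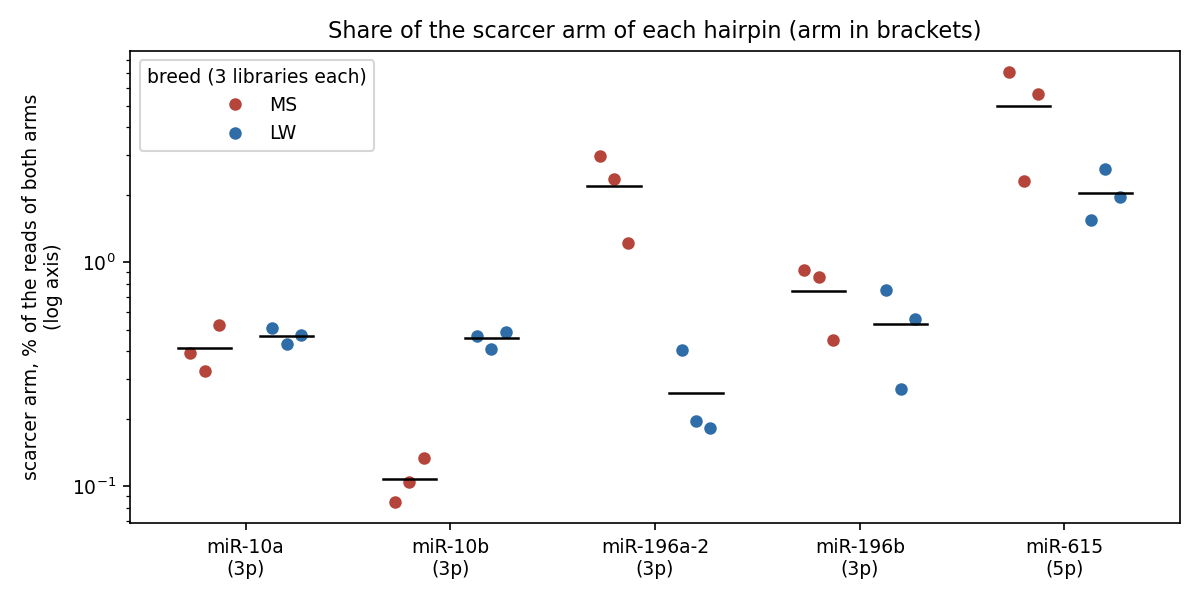
Share of the scarcer arm (named in brackets) in the reads of both arms of each hairpin (percent, log axis), with MS left of LW, points for libraries and black lines for means. For miR-196a-2 the 5p reads include those of miR-196a-1. The 3p share of miR-10b lay between 0.085% and 0.134% in MS against 0.410% to 0.490% in LW, and that of miR-196a-2 between 1.22% and 2.98% in MS against 0.182% to 0.404% in LW.

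For miR-615 the 5p arm, the passenger, made up 7.06%, 2.31% and 5.62% of the reads in MS and 1.55%, 2.62% and 1.96% in LW. MS replicate 2 lay inside the LW range. The log2 ratio of 5p to 3p was higher in MS by 1.26 (SE 0.47, limma adjusted p = 0.041), and the call was lost without MS replicate 1, MS replicate 3, LW replicate 1 or LW replicate 3 (0.93 to 1.24, limma adjusted p = 0.086 to 0.15) and after the GC correction (0.82, limma adjusted p = 0.18). For miR-196b the arm ratio did not pass at the authors' values (log2 difference -0.55, limma adjusted p = 0.31), but after the GC correction the difference was -1.33 and called (limma adjusted p = 0.025). Of the 5 hairpins 3 passed, beside 61.5% of the 192 pairs of arms in the table. The ratio was called higher in MS for 2 of the 5, beside 27.1% of all pairs, and called lower for 1, beside 34.4%. The libraries of the breeds did not overlap for 2 of the 5, beside 69.3% of all pairs, so that shifts of this kind were common in these libraries. By size, the difference at miR-196a-2 ranked 33, that at miR-10b 70 and that at miR-615 108 among the 192.

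In the order of their levels, miR-10b-5p came first and miR-10a-5p next in each library, then the miR-196 5p arms, then miR-615-3p. Levels of different miRNAs also reflect how well each is ligated and amplified. MiR-10b-5p ranked 1 in MS and 5 in LW among all miRNAs by the breed mean, and miR-10a-5p 11 and 21. MiR-196b-5p ranked 65 in MS and 56 in LW, miR-196a-5p 72 and 54, and miR-615-3p 184 and 103. The ranges of miR-196a-5p and miR-196b-5p over the libraries overlapped in both breeds, although their ratio within a library differed, being above 1 in MS and below 1 in LW. Among the scarce arms, miR-10b-3p and miR-10a-3p overlapped in MS (184 to 190 and 132 to 242 normalized reads), whereas in LW miR-10b-3p lay above miR-10a-3p in every library. MiR-196a-2-3p was above miR-196b-3p in each MS library and below it in each LW library.

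The miRNAs whose profile over the 6 libraries was most like that of each main arm were taken among 174 others with at least 1000 normalized reads in either breed. Likeness was the mean absolute difference of log2 values centred on each miRNA's own mean, and it is given as a description. MiR-615-3p was closest to PN-59-3p at 0.06 log2 units, with PN-59-5p at 0.13 and miR-505-3p at 0.14. PN-59-3p averaged 2779 ± 1160 normalized reads in MS and 11116 ± 1716 in LW (SD, n = 3 each). PN-59-5p and miR-505-3p, with MS means of 842 and 384, reached 1000 normalized reads through LW alone. MiR-10a-5p was closest to miR-339-5p (0.10), miR-151-3p and miR-26a-5p, which have no breed call. MiR-10b-5p was closest to miR-676-3p (0.11) and miR-708-5p (0.12), neither of them called, and to PN-50-5p (0.16), called higher in MS. For the miR-196 miRNAs the nearest lay farther off, miR-20a-5p at 0.22 for miR-196a-5p and miR-191-5p at 0.19 for miR-196b-5p.

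Related miRNAs outside the HOX clusters were counted from lists. The wider miR-10 family includes miR-99, miR-100 and miR-125, which lie beside let-7 genes, and all 5 of their 5p arms were lower in MS, with a median log2 fold change of -3.64. After scaling to equal sums or after the GC correction 4 of the 5 were called lower. Neither miR-10a-5p nor miR-10b-5p was lower in MS at the authors' scaling. Of 8 let-7 and miR-98 5p arms, whose seed overlaps that of miR-196, 6 were lower and 1, miR-98-5p, was higher in MS (median -1.21), and after the GC correction all 8 were lower.

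Markers of other cell types differed between the breeds in the same libraries. The summed levels of neural miRNAs (3 of 5 list entries found) were 1727 to 4274 normalized reads in MS and 360 to 1313 in LW. Erythroid miRNAs (4 of 4) had 6103 to 10759 in MS and 3508 to 4569 in LW, and endothelial miRNAs (2 of 2) 10500 to 13989 in MS and 5134 to 8860 in LW. Every one of these sums was higher in each MS library than in each LW library. At the authors' scaling 2 of 3 neural, 3 of 4 erythroid and 1 of 2 endothelial miRNAs were called higher. The endothelial sum was carried by miR-126-5p, since miR-126-3p had 3899 to 4161 in MS and 4166 to 6726 in LW (log2 fold change -0.43, not called). Among the neural miRNAs, after the GC correction 1 was called higher and 1 lower. For leukocyte miRNAs (3 of 4 found) the sums were 807 to 1364 in MS and 111 to 135 in LW, and for epithelial miRNAs (2 of 6) 425 to 1247 in MS and 125 to 246 in LW. The summed cartilage miRNAs (4 of 4) were lower in MS, with 7681 to 14936 in MS and 63660 to 81035 in LW. Of these 4, miR-140-3p, which made up most of the sum, and miR-455-3p were called lower, while miR-140-5p (log2 fold change -0.12) and miR-455-5p (0.54) were not called. The liver marker miR-122-5p had 46.8 to 89.1 in MS, and 182, 237 and 2860 in LW replicates 1, 2 and 3. No marker found was at 0 in all libraries. The part of these cell types in the breed differences of the HOX-cluster miRNAs was not tested.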

How the data were processed

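The values were deposited as a signal for each mature miRNA and library. Per the paper's methods the authors removed adapters and reads outside 18 to 26 nt with ACGT101-miR (version not given in the sources used here), removed other RNA classes, mapped with BLAST to miRBase 21.0 and Sscrofa 10.2, and scaled the most abundant sequence of each miRNA by total mappable reads. The total scaled to is not named. The length was deposited as another number, and 4 lines of the table were not used.

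One read per library was taken as the step of low values. Of values up to 20 reads 93.2% to 95.7% were whole within 0.1 read. The breed difference was fitted by limma 3.58.1 under R 4.3.3 (pseudocount 1, eBayes with trend) over miRNAs with a mean of at least 10 in either breed. Calls also came from edgeR 4.0.16, with 184 miRNAs higher and 161 lower in MS of 548, and DESeq2 1.42.0 on recovered reads. Arm ratios were fitted by limma over all pairs of arms of at least 10. GC correction was a loess curve (span 0.75) within each library. Descriptive steps used Python 3.11.15, numpy 2.4.6, pandas 2.3.3, scipy 1.17.1 (exact tests) and matplotlib 3.10.9. Steps were tested on simulated data. The members and lists were chosen with earlier results of these data known. All members were named, with the 3 miRNAs most like each main arm.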

Additional observations from a re-analysis of the deposited data

How the results depend on the processing

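The count of HOX-cluster miRNAs called higher in MS was 2 at the authors' scaling. It was 1 without the low-value filter, with a filter at 1000 normalized reads (under which 5 of the miRNAs remain), with median of ratios, without the eBayes trend, after the GC correction, with DESeq2, with the replicate block, and with the block and GC correction together. In each of these settings miR-10b-5p was not called, except under the filter at 1000, which removes miR-196a-2-3p. The count called lower was 3, and it was 5 after the GC correction with or without the block, when miR-10a-5p (-0.79) and miR-10a-3p (-1.43) joined it. It was 2 with equal sums (3 higher), with the filter at 1000 and without the eBayes trend, where miR-196a-5p lost its call (limma adjusted p = 0.081). After the GC correction miR-10b-5p was at -0.38. An unadjusted test of the study's kind above 1000 normalized reads called 0 higher and 1 lower, miR-615-3p. With means of 565 in MS and 2403 in LW, miR-615-3p passes a limit of 1000 through LW alone. Over all 179 miRNAs the unadjusted test called 46 higher and 64 lower. These differ from the counts the paper reports, so the calls are not the study's own. Leaving out 1 library gave 1 to 2 higher and 2 to 4 lower. Pseudocounts, TMM and edgeR left both counts as they were. The calls of miR-615-3p, miR-10b-3p and miR-196a-2-3p held in every setting in which they were tested. For miR-615-3p the settings with a limit of 1000 add no support, since LW alone brought it over that limit.

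For arm balance, 3 hairpins were called at the authors' values, 1 when both arms had to reach 100 normalized reads (which leaves out miR-196a-2, miR-196b and miR-615), and 2 to 3 without 1 library. MiR-615 lost its call with a pseudocount of 0.5 (1.24), with the block (1.26) and after the GC correction (0.82), which for arms was chosen after seeing the data. The difference in the miR-196 share was -0.051 percentage points. It was 0.0385 without MS replicate 1 and 0.0498 without LW replicate 2, with a range of -0.158 to 0.0498. The miR-10 difference in share was 4.57 to 5.90, that of all members 4.55 to 5.67, and that of miR-615 -0.068 to -0.053 without 1 library. The 2 paralog differences were 0.25 to 0.56 for miR-10 and 0.18 to 0.39 for miR-196.

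Same replicate numbers name different sows. Correlations of deviations were 0.0047, -0.21 and 0.097 for libraries of the same number, and -0.28 to 0.36 for the others. With 3 libraries per breed they cannot decide whether libraries of the same number were processed together. The block changes only the test. It changed no call other than those named. P-values rest on the spread between 3 animals per breed, and those of limma also on a variance trend over all miRNAs or pairs tested. Without that trend the limma adjusted p was 0.13 for miR-10b-5p and 0.081 for miR-196a-5p. The tested members under 100 normalized reads rest on as few as 11 reads in a library, and miR-196a-1-3p, not tested, on 0 to 2.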
